A study of Mus musculus with 4 samples.

Results

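Hemidesmosomes are the rivet-like junctions that tie basal epithelial cells to the basement membrane. In their core, integrin alpha 6 beta 4 and the transmembrane collagen XVII bind laminin-332 outside the cell, while the plakins plectin and dystonin link the same complex to keratin filaments inside it. In the mammary gland these junctions belong to the basal layer, and the alpha 6 chain, also called CD49f, is one of the antigens by which that layer is sorted. A set of 7 genes of this structure was described here in sorted mouse basal cells, out of 34615 gene rows counted in each library. They were taken by symbol, each matched to 1 Ensembl row, and all 7 passed the low-count filter that kept 15364 genes. They are Itga6 (ENSMUSG00000027111, chromosome 2), Cd151 (ENSMUSG00000025510, chromosome 7), Dst (ENSMUSG00000026131, chromosome 1), Plec (ENSMUSG00000022565, chromosome 15), Col17a1 (ENSMUSG00000025064, chromosome 19), Lama3 (ENSMUSG00000024421, chromosome 18) and Lamb3 (ENSMUSG00000026639, chromosome 1). Itgb4, which encodes the beta 4 chain, was not analysed here.

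The series compared basal cells without and with the microRNA miR-205 in 2 KO and 2 WT libraries. In KO (miR205fl/flmTmGfl/fl cre+) the miR-205 alleles were floxed, whereas the WT label reads WTfl/flmTmGfl/fl cre+. Cells of both groups carried the Rosa mTmG reporter, which turns from red to green after recombination. Both were treated with a Cre adenovirus (Ad-cre) outside the animal and transplanted into SCID-Beige mice aged 3 weeks, an immunodeficient host. After 8 weeks mammary cells were isolated from outgrowths described as pooled, with the number 40 given, and green basal cells were sorted as CD24+ and CD49f high. Cre acted only in cells the virus reached, and the green gate selected recombined cells. The labels do not say whether replicates of a genotype came from separate pools, so the p-values below reflect how far these libraries scatter, and that scatter may be technical.

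Gene counts per library ran from 47953972 to 60030932. Mir205 had 0 counts in every library, so the targeted gene could not check the labels. KO replicate 2 stood apart: 12679 genes had a count there, against 18897 in KO replicate 1 and 18139 and 18027 in WT. Across the 15364 tested genes the edgeR quasi-likelihood test called 0% higher in KO and 0% lower, with 0.05 as the limit of the adjusted p (Benjamini-Hochberg). An unadjusted p under 0.05 was reached by 147 genes. DESeq2 called 4 genes, 0.0195% higher and 0.00651% lower in KO, and limma voom called 0. Genes at a mean of 100 counts-per-million (CPM) or more, the class that holds all 7 members, numbered 2237. In that class the spread of log2 values around the WT mean was 0.24 (SD over genes) in KO replicate 1 and 0.64 in KO replicate 2. It was 0.13 in each WT library, but each is part of the WT mean, which narrows its spread. The WT value is thus not a like measure for the KO libraries. Of the KO libraries, replicate 2 had the wider spread. The member values are therefore given with and without KO replicate 2. Without it KO replicate 1 is the only KO library. The standard errors of those fits then hold no scatter between KO libraries and do not mark a more precise estimate.

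The sorted cells carried basal markers at high level. The 7 measured basal markers summed to 9293 and 7176 CPM in KO, against 7375 and 7234 CPM in WT, led by Acta2, Myh11 and Krt5, the last a basal keratin that hemidesmosomes anchor. Krt14 was not analysed here. Markers of other cells were lower but present. The 7 measured luminal markers summed to 575 and 815 CPM in KO and to 488 and 829 CPM in WT, with Elf5 at 0 in KO replicate 2. Of these 7, Kit and Elf5 had both KO libraries below both WT libraries and 5 overlapped. Kit stood at 6.91 and 1.44 CPM in KO, against 15.6 and 27.6 CPM in WT, and Elf5 had 94 and 0 counts in KO, against 172 and 285 counts in WT. Neither passed the edgeR test (adjusted p = 0.9989). Endothelial cells also display CD49f, and their 5 measured markers summed to 133 and 60.1 CPM in KO, against 84.2 and 165 CPM in WT, with none at 0 and Kdr at 2 counts in KO replicate 2. The 5 fibroblast markers summed to 259.5 and 399.8 CPM in KO and to 159.9 and 193.7 CPM in WT, the 4 immune markers to 96.5 and 316 CPM in KO and to 64.8 and 148 CPM in WT, and the 3 nerve markers to 75.2 and 46.5 CPM in KO and to 74.8 and 87.2 CPM in WT. Muscle markers summed to at most 0.22 CPM and epidermal markers to at most 1.31 CPM in any library. The summed fibroblast level was higher in both KO libraries than in both WT libraries. Of the 5 markers, Dcn and Col6a1 had both KO libraries above both WT libraries, and 3 overlapped. The part of these other cell types in the results below was not tested.

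MicroRNAs bind messenger RNAs mainly through bases 2 to 8, the seed, which pairs with a complementary stretch in the 3' untranslated region (UTR). Because miR-205 is what the groups differ in, its sequence is shown with the seed in capitals. The 1 match to the seed found in the members' longest annotated 3' UTRs follows, with the matching bases in capitals.
miR-205-5p: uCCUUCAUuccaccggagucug
Itga6 3' UTR: acaccacagcaATGAAGGcagccacactg
The mature microRNA is from RefSeq (GRCm38.p6, chr1:193507503-193507524, minus strand). The Itga6 stretch lies at chr2:71853919-71853947 on the plus strand and was read from a GENCODE M21 transcript on GRCm38, a later build than the NCBIM37 build of the counts. Among the 7 members, only Itga6 held ATGAAGG, the complement of the whole seed, in its longest annotated 3' UTR. This 7-base match occurred in 11.2% of 18168 genes with an annotated 3' UTR. That match or the form TGAAGGA, which shares 6 bases with it, occurred in 20% of genes with an annotated 3' UTR, and in none of the other 6 members. The transcript strand alone was searched. A match of letters does not show binding.

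Several of the hemidesmosome genes ranked high by CPM, which is not corrected for transcript length. Levels per kilobase are given further below. Dst ranked 6 by mean CPM of the 15364 tested genes, Itga6 ranked 25, Plec 67, Col17a1 81 and Lama3 104, while Lamb3 ranked 876 and Cd151 ranked 1521. The 7 together took 1.125% and 0.878% of gene counts in KO, against 1.165% and 1.128% in WT. In the edgeR test between genotypes no member passed, none had an unadjusted p under 0.05, and every adjusted p was 0.9989. Under limma voom Itga6 alone of the members had an unadjusted p under 0.05 (0.0332, adjusted p = 0.8883). In the edgeR fit Itga6 and Cd151 had positive log2 fold changes and Dst, Plec, Col17a1, Lama3 and Lamb3 negative ones. The median of the 7 was -0.03, against -0.14 over all tested genes and 0.13 over the abundant class, and it was -0.01 without KO replicate 2. In bulk RNA, fewer cells of a type and less RNA per cell cannot be told apart.

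**Figure D1:**
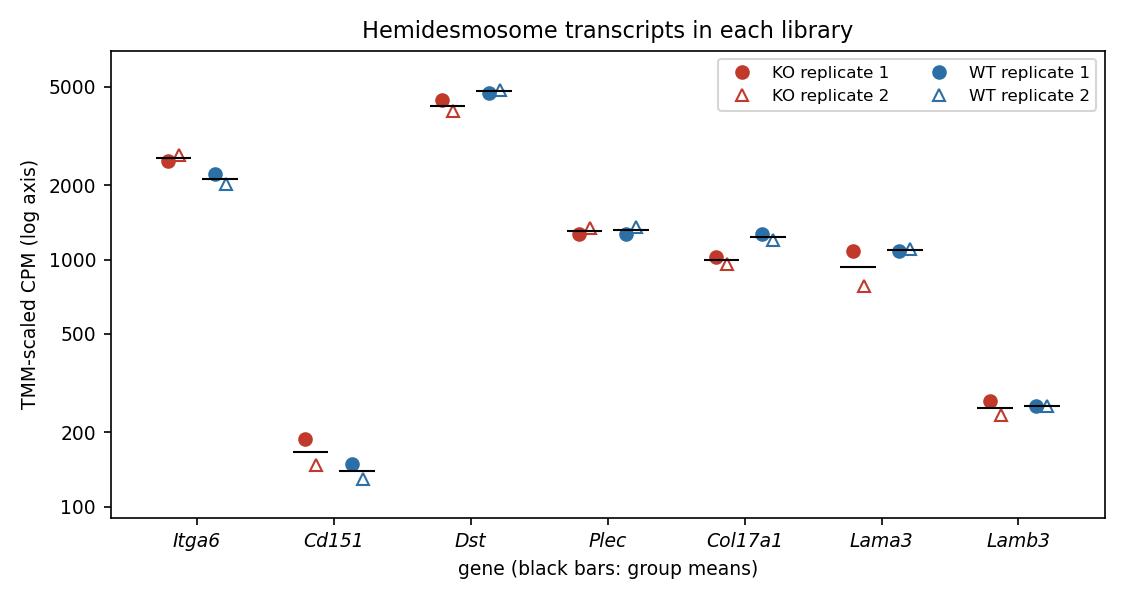
TMM-scaled CPM on a log axis for the 7 members, with KO in red left of WT in blue, circles for replicate 1, triangles for replicate 2 and black bars for group means. Itga6 has both KO libraries above both WT libraries, Dst and Col17a1 have both KO libraries below, and the low Lama3 point is KO replicate 2.

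Of the receptors, Itga6 encodes the laminin-binding alpha 6 chain that was used as the sort antigen. It stood at 2498 and 2637 CPM in KO, against 2213 and 2021 CPM in WT, with CPM scaled by the TMM method. Both KO libraries lay above both WT libraries, with group means of 2568 ± 98.2 CPM in KO and 2117 ± 136 CPM in WT (SD, n = 2 each). The fitted log2 fold change was 0.28 ± 0.17 (SE; 95% interval -0.15 to 0.71). It was 0.24 ± 0.10 without KO replicate 2, an SE that holds no scatter between KO libraries. It did not pass the edgeR test (adjusted p = 0.9989). Under total count scaling the groups overlapped, at 2617 and 2295 CPM in KO and 2351 and 2086 CPM in WT. Cells of both groups were gated on high CD49f protein, and how that gate bears on Itga6 RNA was not tested.

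Cd151 encodes a tetraspanin, a membrane protein that associates with laminin-binding integrins. It stood at 187 and 147 CPM in KO, against 149 and 130 CPM in WT. KO replicate 1 was above both WT libraries, while KO replicate 2 lay between them, so the groups overlapped. Its log2 fold change was 0.26 ± 0.25 (95% interval -0.38 to 0.90), 0.43 ± 0.19 without KO replicate 2 and 0.07 without KO replicate 1. A noncoding gene on the opposite strand, Gm10575, overlaps it and had 154 and 50 counts in KO and 203 and 75 counts in WT, where Cd151 itself had 11747 and 6121 counts in KO and 8385 and 7710 counts in WT. The strand setting of the counts is not given, so reads of such an overlap cannot be assigned to a strand.

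The plakins gave no difference past the test. Dst, whose epithelial isoform is the bullous pemphigoid antigen 1 of the inner plaque, stood at 4415 and 3981 CPM in KO, against 4726 and 4862 CPM in WT. Both KO libraries were below both WT libraries, with a log2 fold change of -0.19 ± 0.16 (95% interval -0.61 to 0.23), or -0.12 ± 0.08 without KO replicate 2. Plec, which encodes plectin, stood at 1264 and 1345 CPM in KO and at 1273 and 1360 CPM in WT. Its libraries interleaved, and the log2 fold change was -0.01 ± 0.17 (95% interval -0.45 to 0.42), or -0.06 ± 0.11 without KO replicate 2. The sign was positive without KO replicate 1 or without WT replicate 2, and under upper quartile and total count scaling both KO libraries lay below both WT libraries. Parp10, which overlaps Plec on the same strand, had 728 and 42 counts in KO and 754 and 753 in WT, against 56104 or more for Plec in every library. Dst and Plec each have many annotated transcripts, 14 and 21 coding ones, and the gene counts do not separate the epithelial isoforms from those of nerve or muscle.

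Col17a1, which encodes collagen XVII, the transmembrane collagen of the hemidesmosome, had the most negative log2 fold change of the 7. It stood at 1025 and 961 CPM in KO, against 1265 and 1197 CPM in WT. The KO libraries lay below both WT libraries, with group means of 993 ± 45.2 CPM in KO and 1231 ± 48.5 CPM in WT (SD, n = 2 each). The log2 fold change was -0.31 ± 0.17 (95% interval -0.75 to 0.13) and -0.26 ± 0.12 without KO replicate 2, and neither passed (edgeR adjusted p = 0.9989 and 0.9998). Under each of 4 scalings (TMM, upper quartile, total count and DESeq2 size factors) the KO libraries stayed below the WT libraries. The same held for Dst, and for Lama3 by a small margin in KO replicate 1. No other gene annotated in GENCODE M21 overlapped Col17a1.

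The ligand of these receptors is laminin-332, a trimer whose alpha 3 and beta 3 chains are described here. Lama3, for the alpha 3 chain, stood at 1085 and 784 CPM in KO, against 1086 and 1102 CPM in WT. KO replicate 1 lay about 1 CPM under the nearer WT library, and the log2 fold change of -0.23 ± 0.22 became -0.01 ± 0.11 without KO replicate 2 and -0.49 without KO replicate 1. Lamb3, for the beta 3 chain, stood at 266 and 235 CPM in KO, on either side of 255 and 256 CPM in WT. Its log2 fold change was -0.03 ± 0.20 (95% interval -0.54 to 0.48), or 0.06 ± 0.16 without KO replicate 2. Lama3 and Lamb3 were both lowest in KO replicate 2, the library with fewer detected genes, and so were Dst and Col17a1. Itga6 was highest in that library, and Plec and Cd151 were lowest in others. The annotated Lamb3 gene spans Hsd11b1 and G0s2, whose counts were at most 66 in any library.

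**Figure D2:**
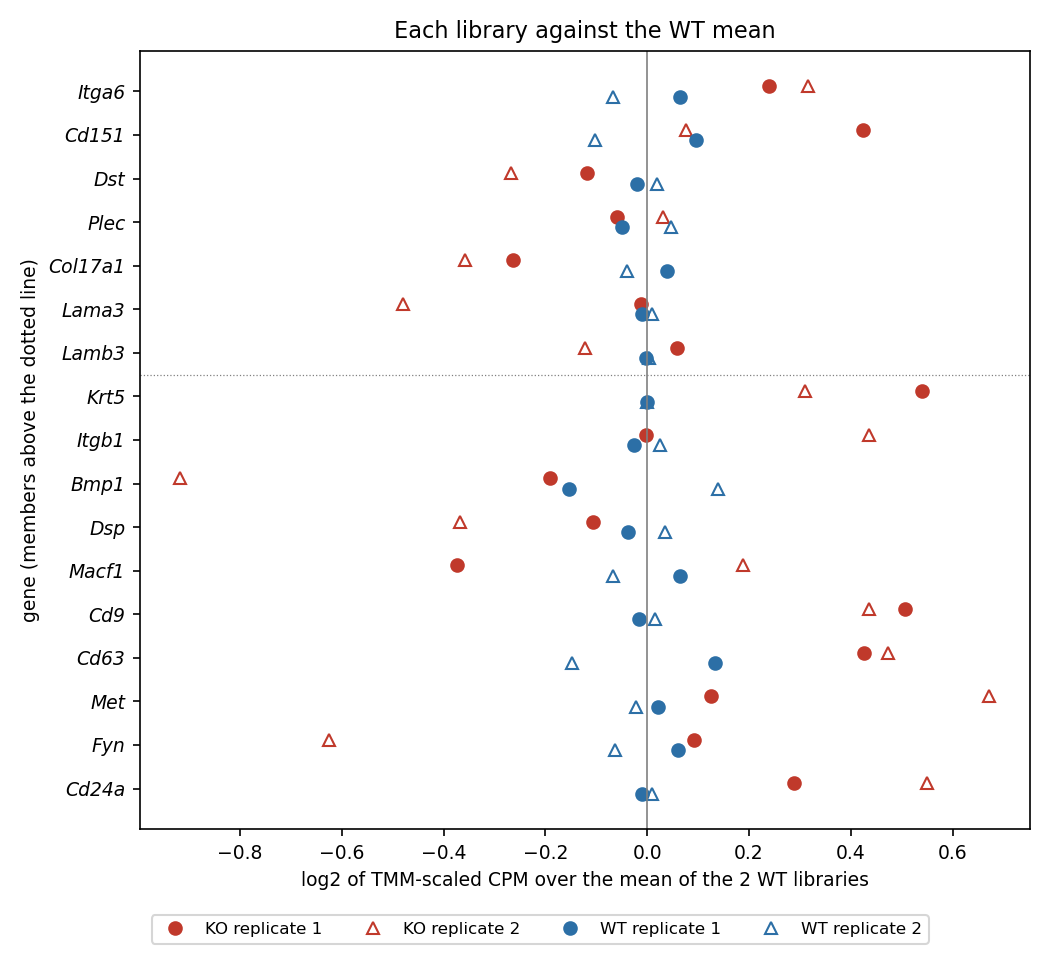
Each library's log2 difference from the mean of the 2 WT libraries, in TMM-scaled CPM, for the 7 members (above the dotted line) and the partner genes named by rule except Tll1, with KO in red above WT in blue and circles and triangles for replicates 1 and 2. Itga6 and Col17a1 have both KO points on 1 side at similar distance, whereas for Lama3 KO replicate 1 lies at -0.01 and KO replicate 2 at -0.48.

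Of the 7 members, 1 had both KO libraries above both WT libraries and 3 had both below (Dst, Col17a1 and Lama3). Over all 15364 tested genes those shares were 13.2% and 19.2%, and over the 2237 abundant genes they were 22.8% and 11.1%. The scaling set part of this count: 0 members were above and 4 below under total count scaling, where 16.3% and 17.4% of abundant genes were. Under upper quartile scaling 1 was above and 4 below, against 17.3% and 16.3% of abundant genes. With DESeq2 size factors 2 were above, Cd151 joining Itga6, and 3 below, against 22.2% and 11.4%. The median log2 fold change of abundant genes was 0.13 with TMM and -0.01 with total count scaling, a shift that moves every member alike. Relative to the median of abundant genes, Itga6 lay 0.15 to 0.16 higher and Cd151 0.13 to 0.16 higher over the 4 scalings. The other 5 lay lower, Col17a1 at -0.44 to -0.42, Lama3 at -0.36 to -0.32 and Dst at -0.32 to -0.30, with Plec and Lamb3 between -0.16 and -0.13. Without KO replicate 2 these distances from the median of abundant genes were 0.24 for Itga6, 0.42 for Cd151, -0.12 for Dst, -0.06 for Plec, -0.27 for Col17a1, -0.01 for Lama3 and 0.06 for Lamb3, so that Lamb3 changed sign and Lama3 lay near 0. Among the log2 fold changes of abundant genes, Col17a1 stood at percentile 8.49, Lama3 at 12.6, Dst at 14.9, Cd151 at 66.1 and Itga6 at 67.7.

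**Figure D3:**
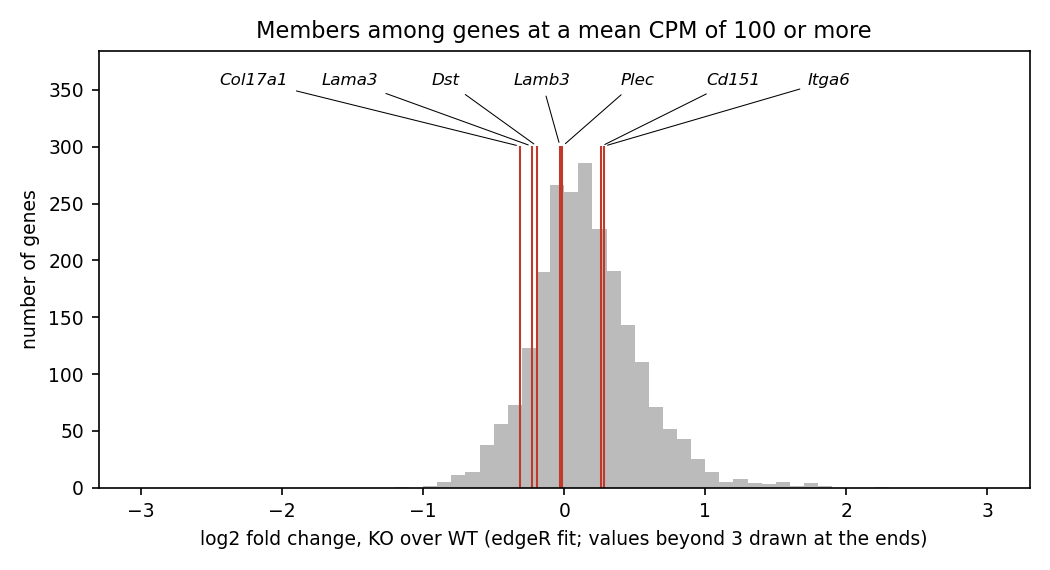
Histogram of the edgeR log2 fold change, KO over WT, of 2237 genes at a mean CPM of 100 or more (grey, number of genes per bin), with each of the 7 members as a red line. All 7 lie within the body of the distribution, Col17a1 the lowest at -0.31 and Itga6 the highest at 0.28.

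Ratios of counts within a library do not depend on scaling. The ratio of Itga6 to Col17a1 counts was 2.44 and 2.74 in KO, against 1.75 and 1.69 in WT. The KO libraries did not overlap the WT libraries, with a mean difference of 0.59 on the log2 scale, 0.51 in KO replicate 1 and 0.68 in KO replicate 2. An exact two-sided permutation test of the 4 libraries gave p = 0.333, the smallest it can give, and 0.466 adjusted over the 21 pairs of members. This ratio was chosen after the values of both genes were seen. Of the 21 pairs of members, 15 did not overlap between KO and WT (71.4%), against 34.5% of 2500966 pairs of abundant genes. The pairs share genes and are not independent: Itga6 was in 5 of the 15, and so were Dst, Col17a1 and Lamb3. The ratio of Itga6 to Dst was 0.566 and 0.662 in KO, against 0.468 and 0.416 in WT. The ratio of Itga6 to Cd151 overlapped, at 13.4 and 18 in KO and 14.9 and 15.6 in WT. Within laminin-332, the ratio of Lama3 to Lamb3 counts was 4.07 and 3.34 in KO, below 4.26 and 4.30 in WT.

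**Figure D4:**
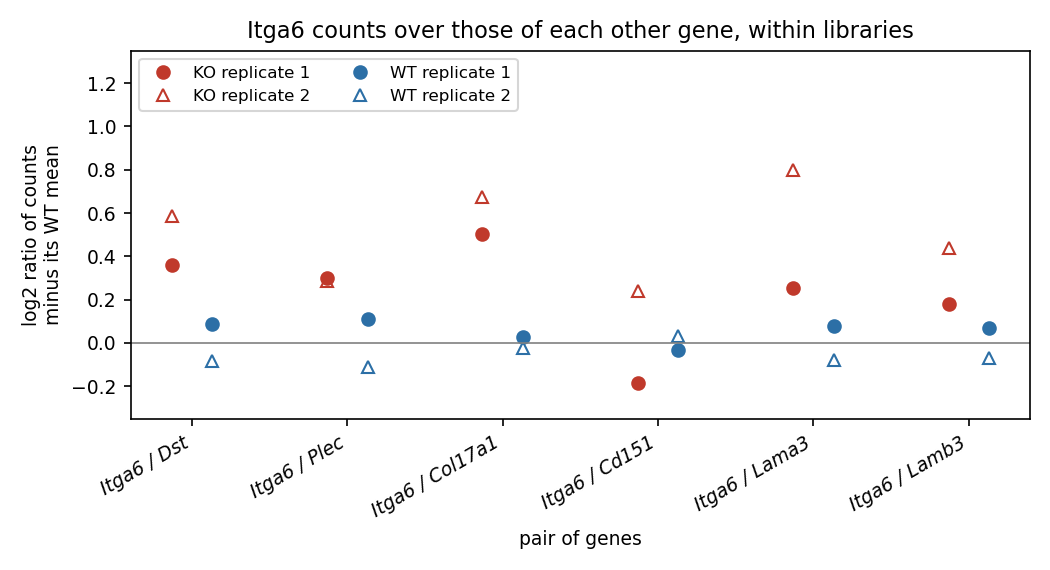
Log2 ratio of Itga6 counts to those of each other member within each library, minus its WT mean, with KO in red left of WT in blue and circles and triangles for replicates 1 and 2. In all pairs but the 1 with Cd151, both KO libraries lie above both WT libraries, and against Col17a1 the KO points lie at 0.51 and 0.68.

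Between genes, levels were compared per kilobase of annotated exon (union over transcripts, GENCODE M21). On that scale Itga6 was the highest of the 7 genes in every library, with 277 and 292 CPM per kilobase in KO and 245 and 224 in WT. Col17a1 was second in every library, at 171 and 160 CPM per kilobase in KO and 210 and 199 in WT, and Dst followed at 107 and 96.7 in KO and 115 and 118 in WT. Lama3 came next in KO replicate 1 and in both WT libraries, at 101 and 73 CPM per kilobase in KO and 101 and 103 in WT. Plec had 69.8 and 74.3 in KO and 70.3 and 75.1 in WT. Cd151 and then Lamb3 closed the order in every library, Cd151 at 68.2 and 53.5 CPM per kilobase in KO and 54.3 and 47.3 in WT, and Lamb3 at 40.3 and 35.5 in KO and 38.6 and 38.7 in WT. Within KO, Lama3 overlapped Dst and Plec, so the order of these neighbours did not exceed the spread of the KO libraries. Within WT no neighbouring pair overlapped. Of the laminin-332 chains described, Lama3 stood above Lamb3 in all 4 libraries. Per length of the longest coding transcript Itga6 remained first and Lamb3 last in every library, while Dst and Col17a1 changed places in KO replicate 1. Cd151 then stood above Plec in KO replicate 1 and above Lama3 in KO replicate 2. The union exceeded the longest coding transcript most for Itga6 (9.025 against 4.31 kilobases) and Dst (41.16 against 23.28 kilobases).

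The other genes of the junction were read from lists of partners, in which 0 genes passed the edgeR test, against 0% of all tested genes. Of 8 anchoring partners, 5 were measured, with 3 positive and 2 negative log2 fold changes between -0.33 and 0.43 and a median of 0.23, or 0.02 without KO replicate 2. Krt5 stood at 1773 and 1512 CPM in KO, against 1219 and 1219 CPM in WT, and its KO libraries lay above both WT libraries (log2 fold change 0.43 ± 0.18). Itgb1, the other beta chain with which alpha 6 pairs, stood at 1347 and 1824 CPM in KO and 1324 and 1373 CPM in WT, so that KO replicate 1 lay between the WT libraries. Krt14 and Itga3 were not analysed here.

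Of 5 other plakins, 3 were measured, and all 3 log2 fold changes were negative, between -0.23 and -0.04. Dsp, the desmosomal plakin, stood at 1924 and 1605 CPM in KO, below 2018 and 2122 CPM in WT. Macf1, a close relative of Dst, stood at 1379 and 2034 CPM in KO and 1868 and 1704 CPM in WT, on either side of WT. Of 5 other tetraspanins, all measured, 3 log2 fold changes were positive and 2 negative. Cd9 stood at 481 and 458 CPM in KO, against 334 and 342 CPM in WT, a log2 fold change of 0.47 ± 0.18 that reached an unadjusted p of 0.0472 and not an adjusted one (edgeR adjusted p = 0.9989). Cd63 stood at 442 and 457 CPM in KO, against 361 and 297 CPM in WT (log2 fold change 0.45 ± 0.20). Both KO libraries exceeded both WT libraries in Cd9 and in Cd63.

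Of 5 enzymes that process or release laminin-332, 2 had positive and 3 negative log2 fold changes, with a median of -0.32. Bmp1, a protease that processes extracellular matrix proteins, stood at 71 and 42.9 CPM in KO, against 72.9 and 89.2 CPM in WT. Tll1, a protease of the same family, had 154 and 1160 counts in KO, against 141 and 140 in WT, so that its difference lay in KO replicate 2 alone. Of 5 signalling inputs, 3 were measured, with 2 positive and 1 negative log2 fold change. Met, the receptor of hepatocyte growth factor, stood at 566 and 827 CPM in KO, against 527 and 511 CPM in WT. Fyn, a kinase of the Src family, stood at 52.9 and 32.2 CPM in KO and 51.8 and 47.5 CPM in WT, with overlapping groups. Egfr and Prkca were not analysed here. The other gated antigen, CD24, is encoded by Cd24a, which stood at 755 and 905 CPM in KO, against 614 and 622 CPM in WT. Its KO libraries lay above both WT libraries, as those of Itga6 did, with a log2 fold change of 0.43 ± 0.19 that did not pass the edgeR test (adjusted p = 0.9989).

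The genes whose pattern over the 4 libraries was most like that of Itga6 were not hemidesmosome genes. By the root mean square difference of centred log2 CPM, among 3499 genes at a mean of 50 CPM or more, they were Tmem30a at 0.02, which stood at 146 and 154 CPM in KO and 133 and 120 CPM in WT, Ppp2cb at 0.02 and Atp2a2 at 0.03. The nearest member was Cd151 at 0.15, and Lama3 was the farthest at 0.33. For Col17a1 the nearest genes were Ankrd17 at 0.02, Tmbim1 at 0.02 and Preb at 0.03, with Dst the nearest member at 0.08 and Itga6 the farthest at 0.30. Such closeness over 4 libraries is a description. With 3499 candidates, close matches from outside the members are likely for any gene.

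Across settings the direction held for Itga6, Cd151, Dst and Col17a1 in each of 12 alternatives, which all draw on these same libraries. Lama3 also stayed negative, but at -0.0086 without KO replicate 2. Plec and Lamb3 sat near 0 and changed sign. Dst and Lama3 passed the edgeR test only without KO replicate 1 (adjusted p = 0.04711 and 0.02275), where KO replicate 2 was the 1 KO library and 12.4% of all tested genes were called higher and 22.5% lower. Without KO replicate 1, Itga6 and Col17a1 had edgeR adjusted p-values of 0.05762 and 0.05547. Without WT replicate 1 or WT replicate 2, 0.0305% and 0.0306% of tested genes were called higher and 0% lower, none of them a member.

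**Figure D5:**
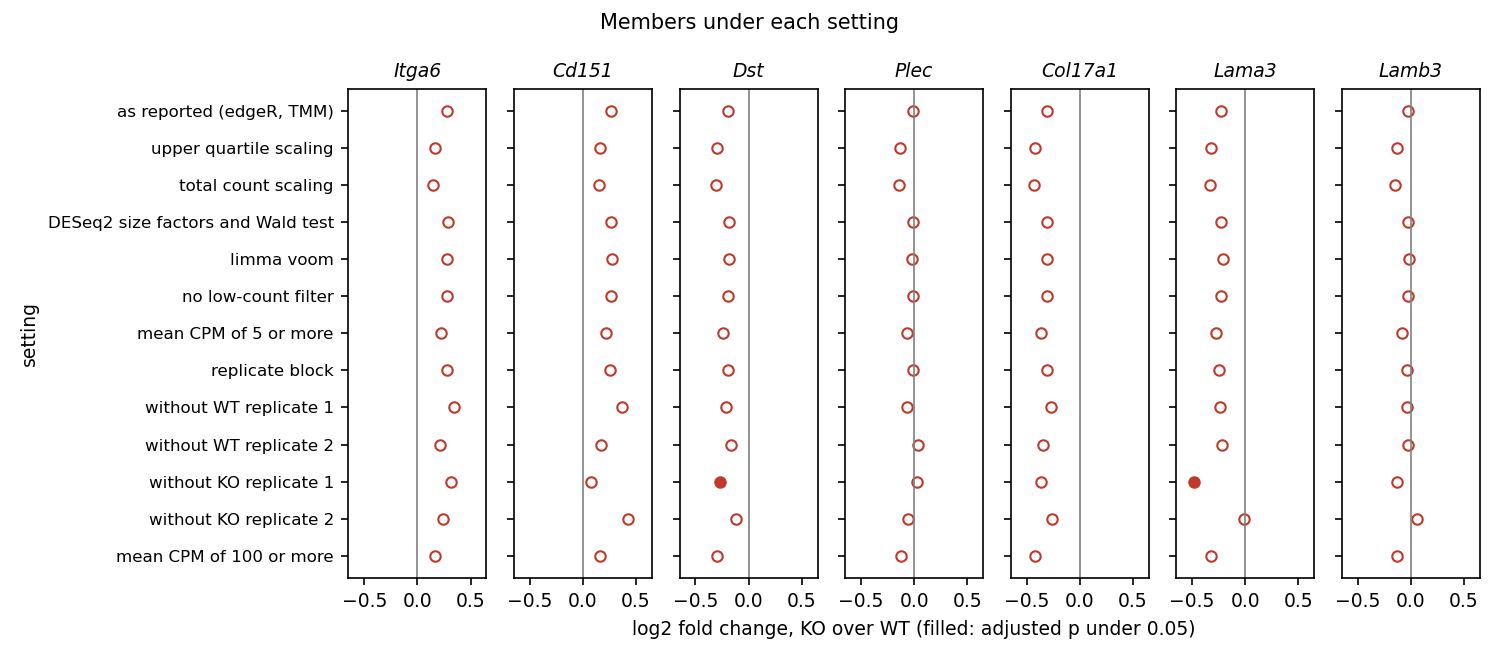
Log2 fold change, KO over WT, of each member (panels) under each setting (rows, the reported one on top), with filled circles where the adjusted p is under 0.05. The 2 filled circles, for Dst and Lama3, both belong to the setting without KO replicate 1.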

How the data were processed

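RNA of sorted basal cells was measured in 2 KO and 2 WT libraries (PicoPure extraction and NuGEN library preparation, per the labels' protocols). The authors deposited whole-number read counts per Ensembl gene, made with TopHat2 (2.02) and HTSeq on NCBIM37 (mm9), per the submitters' processing notes; the sources used here do not give the annotation release, strand setting or overlap rule. Reads that HTSeq assigned to no feature were 57.85% and 61.52% of counted lines in KO and 61.4% and 57.59% in WT. Where in the genome they lay is not given. That summary row and 4 others stayed out of library sizes and tests. Symbols were matched for 30082 rows (86.9%) through GENCODE M21.

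KO was tested against WT with edgeR 4.0.16 (R 4.3.3): filterByExpr, TMM scaling and the quasi-likelihood test without a replicate block, with Benjamini-Hochberg adjustment over all tested genes. Standard errors are the absolute log2 fold change divided by the square root of F. DESeq2 1.42.0 and limma 3.58.1 served as alternatives; tables and figures used Python 3.11.15. The procedure was tested on simulated counts. The checks it had to meet were set at a lower spread than the common spread of these data. They do not show how many true changes would be found here. The common coefficient of variation between libraries of a group was 0.93 in the reported fit. In the fit of genes at a mean CPM of 100 or more it was 0.24. Counting error at these depths is small, and it does not cover amplification, since reads carried no molecular identifiers.

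Members and partner lists were chosen with earlier results of these data known. The rule for named genes took all members, the 2 genes with the smallest p in each partner list at a mean CPM of 5 or more, and the 3 genes nearest in pattern to Itga6 and to Col17a1. A filter at a mean CPM of 100 or more and the ratios of counts were added after seeing the data. One gene of the partner lists is not reported here, and the lists and pairs were counted without it.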

Additional observations from a re-analysis of the deposited data

How the results depend on the processing

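Of 84 member values under the 12 alternatives, 79 kept both direction and side of the threshold, 2 newly passed it and 3 reversed; the cause was not tested. Total count and upper quartile scaling lowered all members, to 0.15 and 0.17 for Itga6 and to -0.43 and -0.42 for Col17a1, by construction of the scaling. The number of genes called was 0 with either of these scalings, with limma voom, without a low-count filter, with the mean CPM filters and with the replicate block, and 4 with DESeq2.

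Leaving out 1 library in turn gave 0 to 5724 called genes: 5724 without KO replicate 1, 0 without KO replicate 2 and 5 without either WT library. Member log2 fold changes then ran from 0.22 to 0.34 for Itga6, 0.07 to 0.43 for Cd151, -0.27 to -0.12 for Dst, -0.063 to 0.036 for Plec, -0.36 to -0.26 for Col17a1, -0.49 to -0.0086 for Lama3 and -0.13 to 0.062 for Lamb3. The reversals were Plec without WT replicate 2 (0.036) and without KO replicate 1 (0.026), and Lamb3 without KO replicate 2 (0.062). Among named partners, Macf1 ran from -0.37 to 0.18, positive without KO replicate 1, and Fyn from -0.63 to 0.095, positive without KO replicate 2. The count of positive members was 2, and 2 or 3 with a library left out.

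With the replicate block Itga6 stood at 0.28, Col17a1 at -0.31 and Lama3 at -0.25, and 79 genes had an unadjusted p under 0.05. The labels do not say whether a replicate number marks a shared batch. The differences between replicates of KO and of WT correlated at 0.02 over genes. That value cannot decide it, because KO replicate 2 stood apart and sets much of the KO difference. The 95% interval of every member held 0 in the reported fit, the widest being that of Cd151 (-0.38 to 0.90).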

Other observations

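In GRCm38, Lamb3 is a close neighbour of the targeted locus on chromosome 1: Camk1g is the 1 protein-coding gene annotated by RefSeq between Lamb3 and Mir205. Lamb3 stood at 266 and 235 CPM in KO and at 255 and 256 CPM in WT, as given above. Camk1g, a calcium/calmodulin-dependent kinase gene, had 283 and 0 counts in KO, against 463 and 431 counts in WT. KO replicate 2 lacked counts for many genes of low level: 40.6% of those with 1 to 5 CPM in WT were at 0 there, while KO replicate 1 missed 0.593% of them. Camk1g, at 8.22 and 7.25 CPM in WT, lay above that range, and the share of zeros at its level was not counted. Lamb3 and Camk1g were looked at for their position after the member list was set, and no test of position was made.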
